A study of Mus musculus with 20 samples.

Results

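The p53 target genes that act in apoptosis or encode death receptors were represented by 10 genes, chosen by symbol, and all 10 were found among the 50559 genes of both tables of raw read counts. They are Bax, Bbc3 and Pmaip1 of the BCL2 family, the receptors Fas, Tnfrsf10b and Eda2r, the membrane proteins Perp and Ei24, and Aen and Trp53inp1, whose products work in the nucleus. RNA was sequenced from 20 mice, 5 each with Aldafermin+MYC, FGF19+MYC or sgTrp53+MYC tumors and 5 with control livers, to ask how tumors driven by FGF19 or its analog compare with each other, with tumors driven by loss of Trp53 and with liver. All mice were female, with the genotype given as C57Bl6J;WT, and plasmids were injected into the tail vein at 6 to 8 weeks of age under high pressure, which transfects a part of the hepatocytes. In each tumor group a MYC plasmid (pT3-EF1a-MYC) and the Sleeping Beauty transposase SB100X were combined with 1 further plasmid. It encoded human FGF19 in FGF19+MYC, the engineered FGF19 analog Aldafermin, altered at its N-terminus, in Aldafermin+MYC, or Cas9 with a guide against Trp53 (LentiCRISPRv2-sgTrp53) in sgTrp53+MYC. For the sgTrp53+MYC samples the treatment label is empty of any agent (none), so the sample titles supplied the condition. Control livers are labelled as non treated, whereas the study's methods describe livers that received an RFP plasmid.

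The transcription factor p53 is held at a low level by Mdm2 and accumulates after DNA damage or oncogene activity, when it switches on genes for cell cycle arrest, repair and cell death. On the mitochondrial route, Bbc3 and Pmaip1 encode BH3-only proteins that neutralise survival proteins, and Bax encodes an effector that opens the outer mitochondrial membrane. On the receptor route, Fas and Tnfrsf10b (the mouse TRAIL receptor) carry death domains that recruit caspases, a route to which hepatocytes are known to be sensitive.

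Each library held 18004977 to 66354724 reads on genes. The sgTrp53+MYC libraries, alone in the second table, were the deepest (from 54042455 reads). Their reads were ambiguous between genes in 11.11% to 14.6% of cases against 3.026% to 6.296% in the first table. Reads not aligned were 5.34% to 6.821% against 15.29% to 34.04%. A difference between tables and a difference of these tumors therefore cannot be told apart. Levels are given as CPM (read counts scaled to a common library size) after normalization by the trimmed mean of M values (TMM). The summed level of 8 hepatocyte markers was 185000 to 230000 CPM in livers and 3490 to 28400 CPM in tumors, none of the 8 being at 0, and the fetal liver genes Afp and Gpc3 together reached 2640 to 5080 CPM in Aldafermin+MYC, 2160 to 4380 CPM in FGF19+MYC, 455 to 1660 CPM in sgTrp53+MYC and 1.36 to 7.03 CPM in livers. In bulk tissue, fewer cells of a type and less RNA per cell cannot be told apart. Single libraries stood apart within their groups. For sgTrp53+MYC replicate 2, 4 biliary markers (Krt19, Krt7, Epcam and Sox9) summed to 312 CPM against 0.64 to 3.99 CPM in the other 4 libraries. Aldafermin+MYC replicate 3 had 1480 CPM over 5 stellate cell and fibroblast markers against 127 to 448 CPM, and Aldafermin+MYC replicate 5 had 539 CPM over 3 erythroid markers against 27.9 to 113 CPM. The part of these markers in the results was not tested.

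The promoters of the genes are shown because p53 binds DNA through a known 10-base element, usually present as a pair. RefSeq promoters of 6 of the genes (build GRCm38.p6), 9 promoters in all, were searched on both strands. Each ran from 250 bases before to 50 bases after the start. Promoters of Pmaip1, Tnfrsf10b, Perp and Trp53inp1 were left out of these 9, so nothing is said here about elements in those genes. An exact copy of the 10-base p53 element lay in 4 of the 9, against 8.36% of 32851 promoters of the same length. The Bax promoter was the only one of the 9 to hold a pair, with a spacer of up to 13 bases and up to 2 mismatches in all outside the invariant core, against 2.12% of all promoters. Capitals mark the element. In Bax they mark an exact copy in the middle and the imperfect copies on either side of it, which overlap as pairs through the middle copy.
Bax promoter, chr7:45466849-45467148, minus strand: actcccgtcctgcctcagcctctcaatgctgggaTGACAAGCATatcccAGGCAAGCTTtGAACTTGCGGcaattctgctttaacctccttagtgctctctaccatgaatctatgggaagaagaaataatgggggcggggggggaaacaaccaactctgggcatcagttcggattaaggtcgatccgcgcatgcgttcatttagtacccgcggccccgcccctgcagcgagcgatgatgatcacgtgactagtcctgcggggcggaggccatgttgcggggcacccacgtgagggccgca
Aen promoter, chr7:78895808-78896107, plus strand: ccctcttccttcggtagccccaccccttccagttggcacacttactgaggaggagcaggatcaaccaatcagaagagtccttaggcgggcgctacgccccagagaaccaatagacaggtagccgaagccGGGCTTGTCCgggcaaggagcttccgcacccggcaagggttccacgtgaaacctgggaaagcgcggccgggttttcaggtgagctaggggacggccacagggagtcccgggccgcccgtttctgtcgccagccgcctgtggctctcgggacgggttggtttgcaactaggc
Ei24 promoter, chr9:36797285-36797584, minus strand: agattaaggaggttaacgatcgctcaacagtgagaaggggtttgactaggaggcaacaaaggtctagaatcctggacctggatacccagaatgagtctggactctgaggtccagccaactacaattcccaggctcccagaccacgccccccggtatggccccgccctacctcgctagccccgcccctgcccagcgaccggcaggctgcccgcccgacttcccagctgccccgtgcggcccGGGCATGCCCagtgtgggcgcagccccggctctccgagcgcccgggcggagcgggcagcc
Eda2r promoter, chrX:97377160-97377459, minus strand: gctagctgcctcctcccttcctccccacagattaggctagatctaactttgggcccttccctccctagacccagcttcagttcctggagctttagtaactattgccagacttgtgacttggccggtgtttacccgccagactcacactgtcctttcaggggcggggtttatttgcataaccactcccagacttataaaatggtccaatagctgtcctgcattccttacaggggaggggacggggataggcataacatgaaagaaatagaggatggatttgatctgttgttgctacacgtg
Eda2r is shown because it differed most between tumors, and like Bbc3 and Fas it held no exact copy in these windows. The second Aen promoter contains the same copy. These matches describe letters in a window and were not tested for binding.

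Trp53 itself, the gene that the guide targets, stood at 176, 159, 129, 135 and 90.8 CPM in replicates 1 to 5 of Aldafermin+MYC, and at 110, 155, 148, 148 and 137 CPM in FGF19+MYC. In sgTrp53+MYC it stood at 18.7, 79.9, 35.4, 51 and 48.8 CPM, below all libraries of the other tumor groups. Control livers held 28.8 to 36.4 CPM. Relative to sgTrp53+MYC, Trp53 was higher by a log2 fold change of 1.56 ± 0.26 (SE) in Aldafermin+MYC (adjusted p = 0.000656) and by 1.58 in FGF19+MYC (adjusted p = 0.000615), in edgeR's quasi-likelihood test with Benjamini-Hochberg adjustment over 14333 genes, which gives every adjusted p here. Replicate 2 was the highest and replicate 1 the lowest sgTrp53+MYC library for Trp53 RNA, and these counts over the whole gene do not show whether its reading frame was intact.

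Relative to sgTrp53+MYC tumors, 6 of the 10 genes were higher in FGF19+MYC tumors (Bax, Bbc3, Tnfrsf10b, Eda2r, Aen and Trp53inp1) and 5 in Aldafermin+MYC tumors (Bax, Fas, Eda2r, Aen and Trp53inp1). None was lower in either comparison. Over all genes tested, 7.97% were higher in FGF19+MYC and 10.2% in Aldafermin+MYC. Their median difference on the log2 scale was 1.0 for FGF19+MYC and 0.91 for Aldafermin+MYC, beside -0.03 and -0.01 over all genes tested. Both comparisons share the sgTrp53+MYC libraries. Marker sums moved with them: that of Afp and Gpc3 was lower in every sgTrp53+MYC library than in any other tumor. The median sums in sgTrp53+MYC, Aldafermin+MYC and FGF19+MYC were 6190, 9750 and 12700 CPM for the hepatocyte markers, with overlapping ranges. For 5 macrophage markers they were 71.6, 125 and 143 CPM, also with overlapping ranges. Not every marker followed its sum. Cps1 was higher in every sgTrp53+MYC library (1030 to 1910 CPM) than in any other tumor (up to 908 CPM). The median of Cyp3a11 was also highest in sgTrp53+MYC (149 CPM), and those of Cyp2e1, Clec4f and Vsig4 lay between the other tumor groups. The other markers of these lists had their lowest tumor median in sgTrp53+MYC. The part of these markers in the differences was not tested. All 10 genes passed the filter on low counts (at least 1 CPM in 5 or more libraries), Eda2r without any sgTrp53+MYC library at that level and Tnfrsf10b without any liver. Every library was above all sgTrp53+MYC libraries for 5 of the 10 genes in FGF19+MYC (5.45% of all genes) and for 3 in Aldafermin+MYC (5.61% of all genes).

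**Figure D1:**
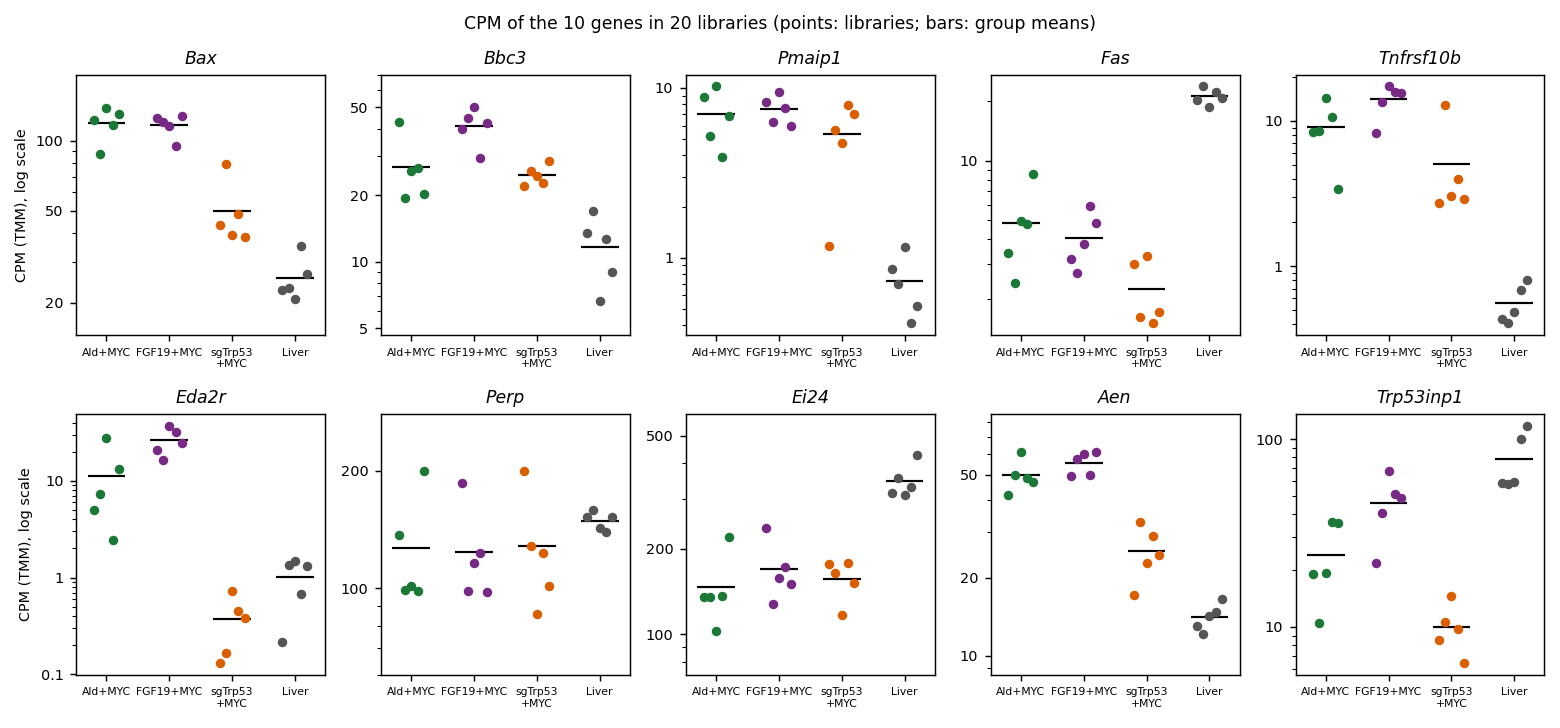
CPM (vertical axis, log scale) of the 10 genes in the 20 libraries, one panel per gene, with points for libraries in order of replicate and bars for group means. The 5 sgTrp53+MYC points of Bax, Eda2r and Aen lie below every point of the other tumor groups, whereas the points of Perp overlap in all tumor groups.

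Bax was the BCL2 family gene with the clearest separation. It measured 123, 87.9, 138, 117 and 131 CPM in Aldafermin+MYC and 125, 120, 116, 95.4 and 128 CPM in FGF19+MYC. The sgTrp53+MYC libraries gave 43.5, 79.5, 39.1, 48.3 and 38.4 CPM. All 10 FGF19+MYC and Aldafermin+MYC libraries were above all 5 sgTrp53+MYC libraries, of which replicate 2 was the highest. The log2 fold change was 1.26 ± 0.19 (SE) for Aldafermin+MYC (2.4-fold, adjusted p = 0.000309) and 1.23 ± 0.19 for FGF19+MYC (2.35-fold, adjusted p = 0.000434) by edgeR. Bax (chromosome 7, 45111015 to 45116325, minus strand, GRCm39) overlaps Gm45808 on its own strand and Gm73431 on the other, and reads that fall on both genes can be counted as ambiguous. In these comparisons log2 fold changes followed GC content across genes (Spearman 0.331 for Aldafermin+MYC and 0.291 for FGF19+MYC), and with an offset for GC content and exon length, chosen after the data were seen, the Bax values were 0.93 (adjusted p = 0.000143) and 0.98 (adjusted p = 8.73e-05).

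Bbc3, which encodes PUMA, ranged from 29.4 to 50.2 CPM in FGF19+MYC, from 19.4 to 42.7 CPM in Aldafermin+MYC and from 21.9 to 28.6 CPM in sgTrp53+MYC. Only the FGF19+MYC libraries stood clear of sgTrp53+MYC, by a margin of less than 1 CPM. Bbc3 was higher in FGF19+MYC by 0.74 ± 0.23 on the log2 scale (edgeR adjusted p = 0.0365), and the difference lost significance with the GC and length offset (0.54, adjusted p = 0.101), with no filter on low counts (0.63) and in 7 of 10 fits that left out 1 library. These were the fits without FGF19+MYC replicate 2, 3 or 5 and without sgTrp53+MYC replicate 1, 2, 3 or 4, with values of 0.66 to 0.76 (adjusted p = 0.0554 to 0.0914). In Aldafermin+MYC the difference was 0.13 (adjusted p = 0.744), with a 95% interval of -0.36 to 0.61.

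Pmaip1, which encodes NOXA, did not pass the test between tumors. Its levels were 3.92 to 10.2 CPM in Aldafermin+MYC, 5.98 to 9.47 CPM in FGF19+MYC and 1.17 to 7.95 CPM in sgTrp53+MYC, where replicate 1 was the lowest. The log2 fold change relative to sgTrp53+MYC was 0.40 (interval -0.39 to 1.2, edgeR adjusted p = 0.503) in Aldafermin+MYC and 0.49 (interval -0.3 to 1.29, adjusted p = 0.407) in FGF19+MYC.

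Among the receptors, Eda2r, which binds the A2 form of ectodysplasin and has no death domain, showed the largest difference of the 10 genes. It measured 5.05, 7.34, 27.8, 2.42 and 13.3 CPM in Aldafermin+MYC and 20.9, 16.4, 37.1, 31.8 and 24.3 CPM in FGF19+MYC. In sgTrp53+MYC it measured 0.132, 0.168, 0.727, 0.449 and 0.384 CPM, from 8 to 63 reads per library. No library of one side reached the other, and sgTrp53+MYC replicate 2, the highest for Bax, was among the lowest for Eda2r. The log2 fold change was 6.11 ± 0.67 (SE) for FGF19+MYC (edgeR adjusted p = 2.61e-05) and 4.88 ± 0.64 for Aldafermin+MYC (adjusted p = 8.39e-05). The Aldafermin+MYC libraries varied most, the highest being 11.5 times the lowest. Replicate 3, the highest of them, was the library with the high stellate cell and fibroblast markers, and without it the Aldafermin+MYC value was 4.22 (adjusted p = 0.000145) and the group mean 7.04 in place of 11.2 CPM.

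Tnfrsf10b measured 8.4, 8.56, 14.3, 10.7 and 3.42 CPM in Aldafermin+MYC and 8.32, 13.5, 17.3, 15.8 and 15.7 CPM in FGF19+MYC. Among sgTrp53+MYC libraries the values were 2.72, 12.8, 3.06, 3.96 and 2.89 CPM. Replicate 2 of sgTrp53+MYC thus lay within the FGF19+MYC range, while the other 4 lay below it. The log2 fold change for FGF19+MYC was 1.48 ± 0.42 (SE) with all libraries (edgeR adjusted p = 0.0221) and 2.16 without replicate 2 (adjusted p = 0.000524). For Aldafermin+MYC it was 0.84 (interval -0.03 to 1.7, adjusted p = 0.169) with all libraries and 1.52 without replicate 2 (adjusted p = 0.00501). Leaving out FGF19+MYC replicate 3, sgTrp53+MYC replicate 3 or sgTrp53+MYC replicate 5 ended the FGF19+MYC call (1.39, 1.34 and 1.33, adjusted p = 0.0508, 0.0558 and 0.0578), as did a fit of only the groups compared (1.46, adjusted p = 0.0607).

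Fas was a low gene in all tumors. It measured 3.42, 2.41, 4.96, 4.77 and 8.56 CPM in Aldafermin+MYC and 3.18, 2.69, 3.77, 5.87 and 4.82 CPM in FGF19+MYC. In sgTrp53+MYC it measured 3.01, 1.62, 3.28, 1.5 and 1.72 CPM. The ranges overlapped in both comparisons. Fas was higher in Aldafermin+MYC by 1.11 ± 0.31 (SE) on the log2 scale (edgeR adjusted p = 0.018), but not without Aldafermin+MYC replicate 5 (0.74, adjusted p = 0.073), which was the highest for Fas and the library with the high erythroid markers. In FGF19+MYC the difference of 0.87 (interval 0.22 to 1.52) did not pass (adjusted p = 0.0616), although it did with DESeq2 (adjusted p = 0.0416), with the GC and length offset (adjusted p = 0.0181) and without sgTrp53+MYC replicate 1 or 3 (adjusted p = 0.0402 in both).

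The membrane proteins did not pass the test between tumors. Perp, a tetraspan protein of desmosomes, ranged from 98 to 200 CPM in Aldafermin+MYC, from 97.8 to 186 CPM in FGF19+MYC and from 85.7 to 200 CPM in sgTrp53+MYC. Its log2 fold change relative to sgTrp53+MYC was -0.01 (interval -0.5 to 0.48) and -0.04 (interval -0.53 to 0.45). Ei24, a protein of the endoplasmic reticulum, ranged from 103 to 219, from 128 to 237 and from 117 to 178 CPM in the same order of groups, with log2 fold changes of -0.11 (interval -0.52 to 0.29) and 0.10 (interval -0.3 to 0.51). For both genes these intervals exclude a 2-fold difference in either direction.

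Aen, a p53-induced nuclease, was among the least variable of the genes that differed. It measured 41.9, 49.7, 61.2, 48.8 and 46.9 CPM in Aldafermin+MYC and 49.4, 57.5, 60.4, 49.8 and 61.4 CPM in FGF19+MYC. Its sgTrp53+MYC levels were 17.2, 32.9, 22.8, 29 and 24.6 CPM. The sgTrp53+MYC libraries were again all below the others, replicate 2 being the highest and replicate 1 the lowest. The log2 fold change was 0.97 ± 0.15 (SE) for Aldafermin+MYC (edgeR adjusted p = 0.000376) and 1.14 ± 0.15 for FGF19+MYC (adjusted p = 0.000123).

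Trp53inp1, whose product interacts with p53 and also takes part in autophagy, measured 19.1, 10.5, 19.3, 36.3 and 35.7 CPM in Aldafermin+MYC and 21.9, 40.4, 67.5, 50.8 and 48.5 CPM in FGF19+MYC. In sgTrp53+MYC it measured 8.55, 10.6, 14.7, 9.71 and 6.45 CPM. FGF19+MYC and sgTrp53+MYC did not overlap, whereas Aldafermin+MYC replicate 2 lay within the sgTrp53+MYC range. The log2 fold change was 2.2 ± 0.35 (SE) for FGF19+MYC (4.58-fold, edgeR adjusted p = 0.000455) and 1.27 ± 0.34 for Aldafermin+MYC (2.42-fold, adjusted p = 0.0144). With only the libraries of the groups compared in the fit, the call for Aldafermin+MYC was lost (1.27, adjusted p = 0.0516), as was that of Fas.

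**Figure D2:**
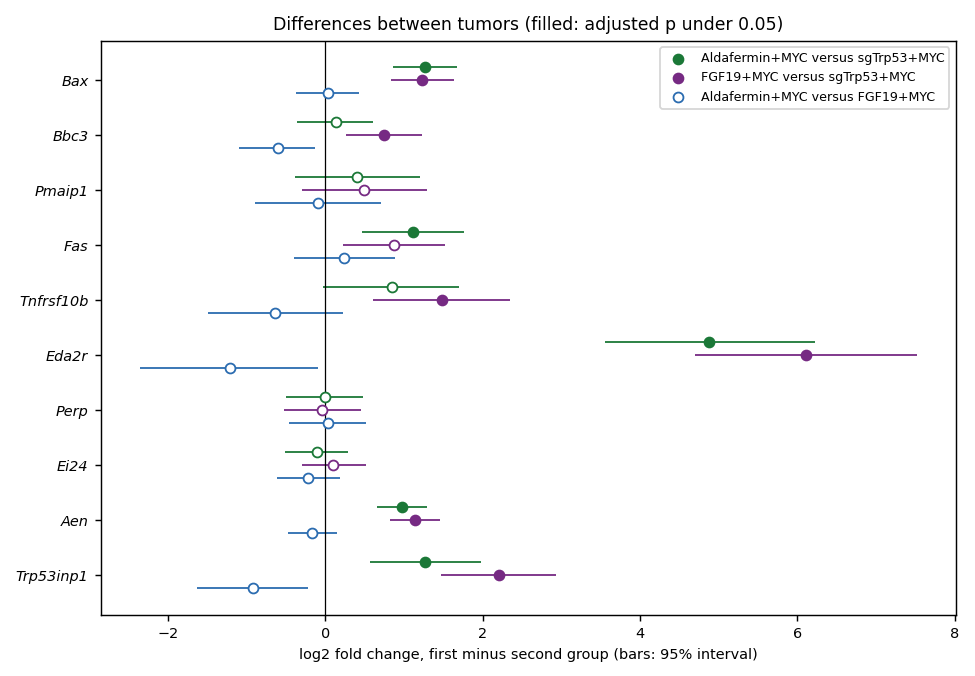
Log2 fold change (horizontal axis, first minus second group) of the 10 genes between tumor groups, with points for the estimate, bars for the 95% interval and filled points where the adjusted p is under 0.05. Eda2r lies farthest from 0, at 4.88 and 6.11 relative to sgTrp53+MYC, and all 10 points of Aldafermin+MYC versus FGF19+MYC are open.

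Within sgTrp53+MYC the libraries differed in Trp53 RNA as well as in these genes. Replicate 2, with 79.9 CPM of Trp53, was the highest of its group for Bax (79.5 CPM), Tnfrsf10b (12.8 CPM) and Aen (32.9 CPM), but for none of the other genes. Its Eda2r level was 0.168 CPM. Replicate 1, with 18.7 CPM of Trp53, was the lowest of its group for Bbc3, Pmaip1, Tnfrsf10b, Eda2r and Aen, but not for the other genes, and the highest for Perp (200 CPM). The 5 libraries are too few for a correlation. Without replicate 2, 5 of the 10 genes were higher in FGF19+MYC, 6 were higher in Aldafermin+MYC, and no gene was lower, in fits that called 2001 and 2349 of all genes in either direction. The biliary markers of replicate 2 moved with these values, and their part was not tested.

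**Figure D3:**
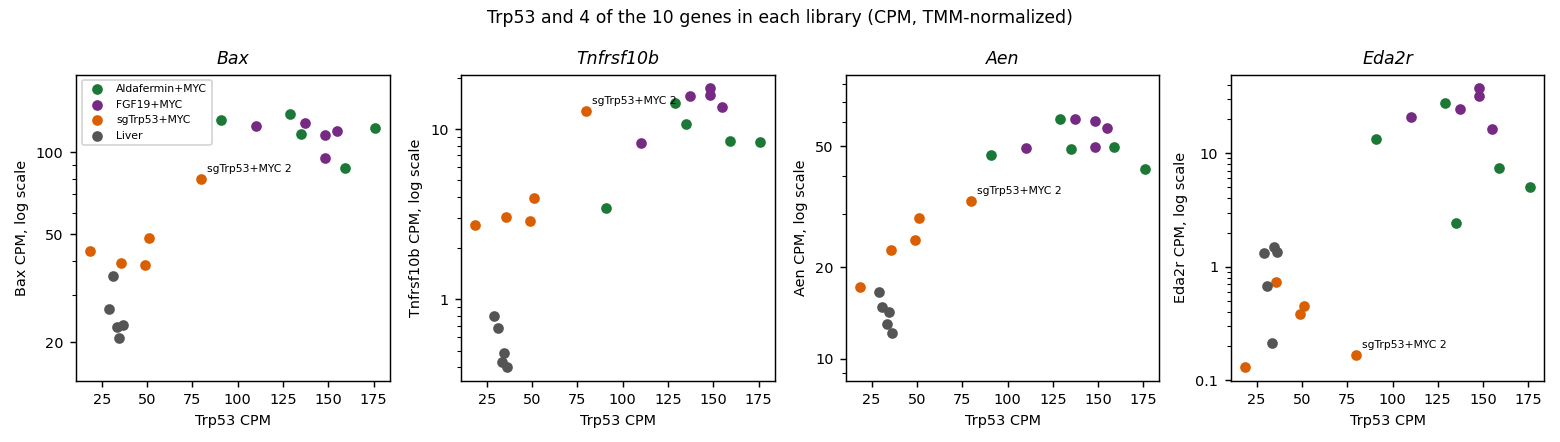
CPM of Bax, Tnfrsf10b, Aen and Eda2r (vertical axes, log scale) against CPM of Trp53 (horizontal axis, linear) in each of the 20 libraries, colored by group. sgTrp53+MYC replicate 2, named in each panel, has the highest Trp53 (79.9 CPM) of its group and lies near the other tumors for Tnfrsf10b but with its own group for Eda2r.

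Aldafermin+MYC and FGF19+MYC tumors, which differ in the N-terminus of the FGF19 protein that was expressed, were compared for each of the 10 genes. None passed the adjusted threshold in edgeR's quasi-likelihood test, in DESeq2 or in edgeR's likelihood ratio test, and 3 had an unadjusted p under 0.05. Over all 14333 genes the edgeR test called 0 (0.0%), with 1048 at an unadjusted p under 0.05, whereas DESeq2 called 95 and the likelihood ratio test 59. The 3 genes were Bbc3, Eda2r and Trp53inp1, all with the lower mean in Aldafermin+MYC. A p that misses the threshold does not show that the proteins act alike, and the intervals state what these libraries allow.

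Trp53inp1 had a mean of 24.2 ± 11.3 CPM (SD, n = 5) in Aldafermin+MYC and 45.8 ± 16.6 CPM in FGF19+MYC, a log2 difference of -0.92 (interval -1.63 to -0.22, edgeR adjusted p = 0.473). For Bbc3 the means were 26.9 ± 9.36 and 41.2 ± 7.66 CPM (SD, n = 5), a log2 difference of -0.61 (interval -1.1 to -0.13, edgeR adjusted p = 0.502). For Eda2r they were 11.2 ± 10.1 and 26.1 ± 8.34 CPM (SD, n = 5), a log2 difference of -1.22 (interval -2.36 to -0.09, edgeR adjusted p = 0.636), and of -1.89 (adjusted p = 0.377) without Aldafermin+MYC replicate 3. The groups overlapped for each of the 10 genes, whereas 1.46% of all genes did not overlap. For Bax, Perp and Aen the intervals lay within 0.6 on either side of 0, at -0.37 to 0.43, -0.46 to 0.52 and -0.48 to 0.15. For Ei24 the interval was -0.62 to 0.19. Wider intervals belonged to Pmaip1 (-0.89 to 0.7), Fas (-0.4 to 0.89) and Tnfrsf10b (-1.5 to 0.22).

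Relative to control livers, 9 of the 10 genes differed in each tumor group, in both directions. Bax, Bbc3, Pmaip1, Tnfrsf10b and Aen were higher in all 3 tumor groups, and Fas, Ei24 and Trp53inp1 were lower in all 3. Eda2r was higher in Aldafermin+MYC and FGF19+MYC but lower in sgTrp53+MYC, and Perp did not pass in any. These counts stand beside a high background, since 70.3% of all genes differed in Aldafermin+MYC, 69.7% in FGF19+MYC and 69.9% in sgTrp53+MYC. Higher in the tumors were 38.4%, 36.9% and 36.9% of all genes and lower were 31.9%, 32.9% and 33.0%. Groups did not overlap for 9, 8 and 8 of the 10 genes in the same order, beside 58.8%, 62.5% and 56.2% of all genes. The 3 comparisons share the liver libraries, and the hepatocyte marker sum moves with all of them, its part not tested.

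On the mitochondrial route, Bax measured 22.8, 23.1, 20.7, 35.2 and 26.5 CPM in livers, below every tumor library. The difference was 2.22 ± 0.2 (SE) for Aldafermin+MYC, 2.19 ± 0.2 for FGF19+MYC and 0.96 ± 0.19 for sgTrp53+MYC on the log2 scale (edgeR adjusted p = 9.6e-09, 1.15e-08 and 0.00022). Bbc3, at 6.63 to 17 CPM in livers, was higher by 1.2, 1.81 and 1.07 in the same order. Pmaip1 was counted at 6 to 26 reads per liver library, 0.41 to 1.15 CPM, and was higher by 3.26, 3.36 and 2.86. The lowest tumor library for Pmaip1, sgTrp53+MYC replicate 1 at 1.17 CPM, was just above the highest liver.

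The receptors did not move together. Tnfrsf10b measured 0.43, 0.403, 0.486, 0.683 and 0.797 CPM in livers, from 6 to 20 reads, and every tumor library was above them. It was higher by 4.01 ± 0.49 (SE) in Aldafermin+MYC, 4.65 ± 0.5 in FGF19+MYC and 3.17 ± 0.47 in sgTrp53+MYC (edgeR adjusted p = 5.59e-07, 1.03e-07 and 7.5e-06). Without sgTrp53+MYC replicate 2 the last value was 2.49 (adjusted p = 4.96e-06). With no liver at 1 CPM, Tnfrsf10b passed the filter through the tumors alone, where it is high. Fas went the other way, with 20.4, 23.8, 18.7, 22.3 and 20.9 CPM in livers, every one above every tumor library. Its log2 fold change was -2.14 ± 0.32 in Aldafermin+MYC, -2.38 ± 0.32 in FGF19+MYC and -3.25 ± 0.33 in sgTrp53+MYC (edgeR adjusted p = 6.93e-06, 2.13e-06 and 4.8e-08). Fas overlaps the short RNA Gm54659 on its strand and Gm59283 on the other (chromosome 19, 34268001 to 34305173, plus strand, GRCm39).

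Eda2r measured 0.215, 1.36, 1.5, 0.683 and 1.31 CPM in livers, from 3 to 37 reads. It was higher by 3.42 ± 0.61 (SE) on the log2 scale in Aldafermin+MYC and by 4.64 ± 0.64 in FGF19+MYC (edgeR adjusted p = 5.67e-05 and 2.74e-06), with no overlap, and by 2.75 in Aldafermin+MYC without replicate 3 (adjusted p = 0.00018). In sgTrp53+MYC it was lower, with a log2 fold change of -1.47 ± 0.6 (adjusted p = 0.0357), and the ranges overlapped. That call was lost in 6 of 10 fits that left out 1 library, those without sgTrp53+MYC replicate 1, 2 or 5 or liver replicate 2, 3 or 5 (-1.26 to -1.47, adjusted p = 0.0554 to 0.0827), and with no filter on low counts (-1.19, adjusted p = 0.0964).

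Perp ranged from 139 to 159 CPM in livers, inside the range of each tumor group, and its log2 fold changes were -0.23, -0.26 and -0.22 (edgeR adjusted p = 0.386, 0.327 and 0.409). Its spread was smaller in livers (SD 7.78 CPM) than in tumors (SD 36.5 to 44.2 CPM), a description that was not tested. Ei24 ranged from 309 to 426 CPM in livers, above all tumor libraries, with log2 fold changes of -1.25, -1.04 and -1.14 (edgeR adjusted p = 1.31e-05, 0.000104 and 3.62e-05).

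Aen measured 13, 12.1, 14.2, 14.8 and 16.6 CPM in livers, below every tumor library, and was higher by 1.81 ± 0.16 (SE), 1.98 ± 0.16 and 0.84 ± 0.15 in Aldafermin+MYC, FGF19+MYC and sgTrp53+MYC (edgeR adjusted p = 5.31e-09, 1.65e-09 and 7.62e-05). Trp53inp1 measured 58.1, 57.8, 59.2, 100 and 118 CPM in livers, where replicates 4 and 5 were the highest. Its log2 fold change was -1.7 ± 0.34 in Aldafermin+MYC and -2.98 ± 0.36 in sgTrp53+MYC (edgeR adjusted p = 0.000209 and 4.92e-07), without overlap. In FGF19+MYC it was -0.78 ± 0.34 (adjusted p = 0.0453), with FGF19+MYC replicate 3 (67.5 CPM) inside the liver range, and the call was lost under 5 of 10 alternatives and in 6 of 10 fits without 1 library, those without FGF19+MYC replicate 1, 2, 4 or 5 or liver replicate 4 or 5 (-0.59 to -0.82, adjusted p = 0.0578 to 0.141).

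**Figure D4:**
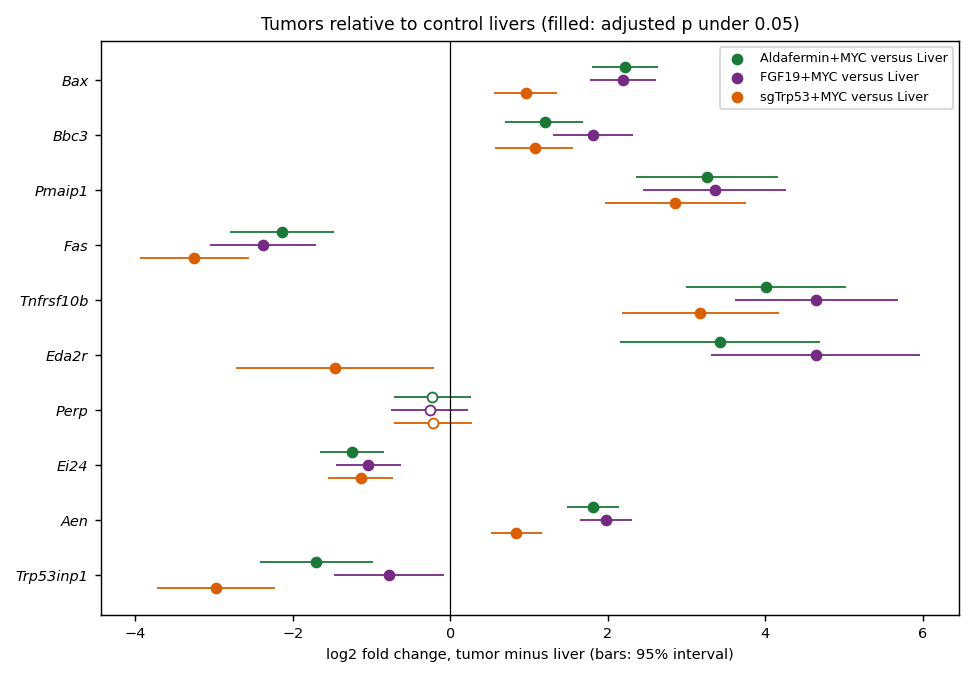
Log2 fold change (horizontal axis, tumor minus liver) of the 10 genes in the 3 tumor groups, with points for the estimate, bars for the 95% interval and filled points where the adjusted p is under 0.05. Fas lies to the left of 0 in all groups (-2.14 to -3.25), Tnfrsf10b to the right (3.17 to 4.65), and Eda2r on both sides.

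Levels of different genes were compared per kilobase of exon, on the CPM scale. The length was that of all annotated exons of a gene, merged over its transcripts, and can exceed that of the transcript expressed. It was 1.86 kb for Bax, 2.0 kb for Perp and 6.93 kb for Ei24. Before this division Ei24 had a higher mean than Bax and Perp in Aldafermin+MYC (146 CPM) and FGF19+MYC (169 CPM). The orders of genes given here therefore depend on these lengths. Bax (64.4 ± 10.4 CPM per kb, SD, n = 5) and Perp (63.3 ± 21.8) led in Aldafermin+MYC, and Bax (63 ± 6.92) and Perp (62 ± 18.2) in FGF19+MYC, in each case with overlapping ranges and above Ei24, whose range overlapped neither. In sgTrp53+MYC Perp came first (63.7 ± 22), followed by Bax (26.8 ± 9.21), again with overlapping ranges. Control livers had Perp first (74.3 ± 3.88) and Ei24 next (50.1 ± 6.9), and then Bax (13.8 ± 3.08), Trp53inp1 (10.7 ± 3.89) and Fas (9.15 ± 0.818), of which Trp53inp1 overlapped both of its neighbours. Fas was thus the leading receptor in livers, with Eda2r (0.135 ± 0.0729) and Tnfrsf10b (0.0982 ± 0.0301) overlapping at the bottom. In FGF19+MYC the order of the receptors was Eda2r (3.48 ± 1.11), Tnfrsf10b (2.48 ± 0.617) and Fas (1.75 ± 0.552). In Aldafermin+MYC it was Fas (2.08 ± 1.01), Tnfrsf10b (1.59 ± 0.696) and Eda2r (1.49 ± 1.35), and in both groups the ranges of neighbours overlapped. Eda2r was last in sgTrp53+MYC (0.0496 ± 0.0321), below Tnfrsf10b (0.892 ± 0.761) without overlap. That Tnfrsf10b level rests on replicate 2, without which the group mean was 3.16 in place of 5.08 CPM.

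**Figure D5:**
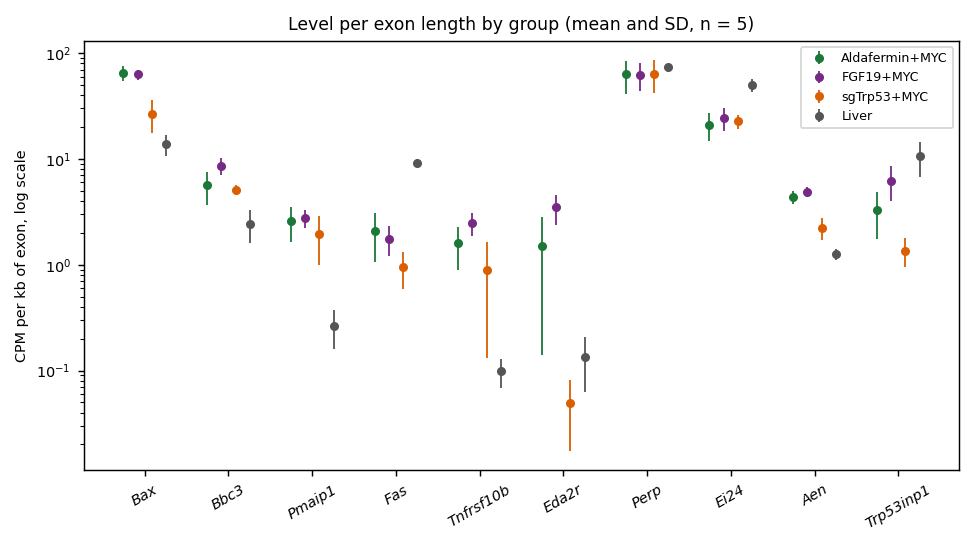
Mean level (vertical axis, CPM per kb of exon, log scale) of the 10 genes in each group, with error bars for the SD over 5 libraries. Perp lies at 62 to 74.3 CPM per kb in all groups, whereas Eda2r runs from 0.0496 in sgTrp53+MYC to 3.48 in FGF19+MYC.

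Other genes of the p53 pathway were counted from a list of 28, of which 26 were tested and Rprm and Trp73 were too low. Relative to sgTrp53+MYC, 14 were higher and 4 lower in FGF19+MYC, and 12 were higher and 4 lower in Aldafermin+MYC, beside 15.8% and 17.7% of all genes called in either direction, with medians of 1.02 and 0.56 on the log2 scale. With only the groups compared in the fit, 13 were higher and 3 lower in FGF19+MYC, and 8 and 2 in Aldafermin+MYC. Those fits called 1436 and 1075 of all genes. Cdkn1a, the inhibitor of cyclin-dependent kinases that mediates p53 arrest, had means of 142 CPM in FGF19+MYC, 91.1 CPM in Aldafermin+MYC and 23.2 CPM in sgTrp53+MYC. It was higher by 2.62 ± 0.48 (SE) and 1.97 ± 0.47 (edgeR adjusted p = 0.00127 and 0.0068). Mdm2, the ubiquitin ligase for p53, was higher by 1.28 in FGF19+MYC (adjusted p = 3.51e-05) and by 0.43 in Aldafermin+MYC (adjusted p = 0.046), and the difference between these groups was -0.85 (adjusted p = 0.0595 by edgeR, called by DESeq2).

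In FGF19+MYC relative to sgTrp53+MYC the highest log2 fold changes of that list belonged to the long noncoding RNA Trp53cor1 (2.96, edgeR adjusted p = 0.00144) and to Phlda3, an inhibitor of AKT (2.78, adjusted p = 0.00053). Trp53cor1 was near the filter level of 1 CPM, with means of 1.26 CPM in FGF19+MYC and 0.158 CPM in sgTrp53+MYC. It thus passed the filter through libraries of other groups than sgTrp53+MYC, and its place in this order depends in part on that. The lowest log2 fold changes belonged to the repair gene Ddb2 (-1.28, adjusted p = 0.00486) and to Rrm2b, a subunit of ribonucleotide reductase (-1.08, adjusted p = 0.0016). The direction was therefore not shared by the whole list. Relative to livers, 14 were higher and 5 lower in Aldafermin+MYC, 17 and 6 in FGF19+MYC, and 7 and 7 in sgTrp53+MYC, beside 70.3%, 69.7% and 69.9% of all genes called in either direction.

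Death ligands, adaptors, caspases and their inhibitors were counted from a list of 33, of which 31 were tested and the ligand genes Fasl and Tnf were too low. Relative to sgTrp53+MYC, 2 were higher and 2 lower in FGF19+MYC (median -0.14), and 5 were higher and 2 lower in Aldafermin+MYC (median -0.1), beside the same shares of all genes as for the p53 list. Single libraries moved these counts. In FGF19+MYC, 3 were called without FGF19+MYC replicate 2, 3 or 4 and 7 without sgTrp53+MYC replicate 4. In Aldafermin+MYC, 4 were called without Aldafermin+MYC replicate 2 or 3 and 10 without Aldafermin+MYC replicate 5. The method moved them further. With only the groups compared in the fit, 2 were called in FGF19+MYC and 0 in Aldafermin+MYC. In Aldafermin+MYC, 4 were called with no filter on low counts. DESeq2, which called 3434 of all genes there, called 12 (6 higher, 6 lower). Pidd1, a death domain protein that activates caspase 2, and Bid, which links death receptors to Bax, were higher in FGF19+MYC by 0.88 and 0.51 on the log2 scale (edgeR adjusted p = 0.00761 and 0.0186). Birc2, an inhibitor of apoptosis, was lower, with a value of -0.59 (adjusted p = 0.0246).

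Relative to livers, 8 of the 31 were higher and 17 lower in FGF19+MYC, 8 and 15 in Aldafermin+MYC, and 8 and 13 in sgTrp53+MYC, beside 69.7%, 70.3% and 69.9% of all genes called in either direction. In FGF19+MYC the highest were Birc5, the survivin gene that is expressed in dividing cells (6.21, edgeR adjusted p = 1.35e-12), and Hrk, a BH3-only gene (3.02, adjusted p = 0.000518). The lowest were Tnfsf10, which encodes TRAIL, the ligand of the Tnfrsf10b receptor (-2.83, adjusted p = 5.06e-05), and Casp6 (-2.82, adjusted p = 5.28e-11). Tnfsf10 had a mean of 11 CPM in livers and 1.54 CPM in FGF19+MYC, the opposite direction to its receptor.

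Beyond the groups, the 10 genes did not vary as one block. After each group's mean was subtracted, Pearson's r of log2 CPM over the 20 libraries had a median of -0.01 over the 45 pairs of genes, with 22 pairs above 0. The extremes were Perp with Ei24 (0.81) and Perp with Aen (-0.46). Eda2r had the largest SD over the 15 tumors (2.81 on the log2 scale), and the genes whose residual pattern was most like it were Bmt2 (0.71), Rasgrp2 (0.68) and Cd300lf (0.67). Depth and marker sums also varied between the libraries of a group, and these values are given as a description.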

How the data were processed

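The authors made stranded mRNA libraries (TruSeq) from individual frozen tumors or livers, demultiplexed reads with bcl2fastq 2.20.0.422 per the labels, aligned paired reads with HISAT2 to mm39 and counted them per RefSeq gene with htseq-count. The deposited values are raw counts in 2 tables without normalization; 5 summary lines, 33.72% to 56.23% of each library, were removed. Counts were fitted with edgeR 4.0.16 in R 4.3.3: genes with at least 1 CPM in 5 libraries (14333), TMM factors, 1 quasi-likelihood model over the 4 groups, and Benjamini-Hochberg adjustment with a threshold of 0.05. Intervals are 95% and p-values two-sided. In simulated counts for FGF19+MYC versus sgTrp53+MYC over 14333 genes, 33 of 100 genes shifted by 1 on the log2 scale and 75 of 100 shifted by 2 were found, with 5 false calls. The simulation gave all groups the FGF19+MYC levels and shifted no other genes. The real comparison called 2258, and the adjustment depends on how many genes differ, so these shares do not carry over to it.

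The members and gene lists were chosen with earlier results of these data known. Named were all 10 members, Trp53, Mdm2 and Cdkn1a, the 2 highest and 2 lowest called genes of each list in FGF19+MYC versus sgTrp53+MYC (for the apoptosis list also versus livers), and the 3 genes most like the most variable member; 1 gene that this rule names is not reported here. Gene positions and exon lengths are from GENCODE M39 (GRCm39), promoters from RefSeq (GRCm38.p6). Samples carry separate animal numbers, so replicates are different mice. Replicate numbers come from titles. Alternatives were DESeq2 1.42.0, edgeR's likelihood ratio test, other factors and filters, a replicate block, a GC and length offset added after the data were seen, and each library left out. Intervals and read counts at low genes cover counting error and the spread between mice, not differences between tables.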

Additional observations from a re-analysis of the deposited data

Results flagged for a closer look

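In 40 groups of 5 libraries (the 10 genes in 4 groups), the highest or lowest library was compared with the rest on the log2 CPM scale, and 2 libraries lay farther from their group than Dixon's 95% limit allows. Chance flags about 1 in 20 groups, which is 2 of 40. Pmaip1 in sgTrp53+MYC replicate 1 measured 1.17 CPM, below the other 4 libraries of the group (4.76 to 7.95 CPM). Tnfrsf10b in sgTrp53+MYC replicate 2 measured 12.8 CPM, above the other 4 (2.72 to 3.96 CPM). Replicate 1 also had the lowest Trp53 of its group and replicate 2 the highest, as well as the highest biliary marker sum.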

How the results depend on the processing

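Of 60 results (10 genes in 6 comparisons), 38 were called. None of the called results changed direction under any alternative, 32 were called in every fit, and 20 of the 22 uncalled results were never called. The number of the 10 genes called was within 1.5 times the main count under every alternative but one: with only the libraries of the groups compared in the fit, Aldafermin+MYC versus sgTrp53+MYC gave 3 genes in place of 5, Fas and Trp53inp1 being lost. That fit has fewer samples, and over all genes it called 1075 in place of 2534, and 1436 in place of 2258 for FGF19+MYC versus sgTrp53+MYC.
Leaving out single libraries, the counts ran from 0 to 0 for Aldafermin+MYC versus FGF19+MYC, 4 to 6 for each of the comparisons with sgTrp53+MYC, 9 to 9 for Aldafermin+MYC versus livers, and 8 to 9 for FGF19+MYC and for sgTrp53+MYC versus livers. FGF19+MYC replicate 3 gave the 4 in FGF19+MYC versus sgTrp53+MYC, and Aldafermin+MYC replicate 5 the 4 in Aldafermin+MYC versus sgTrp53+MYC.
Replicate numbers do not pair the mice: the correlation of deviations between same-numbered libraries ran from -0.333 to 0.333 over 30 pairs, with 6 above 0.1. With the replicate block, FGF19+MYC versus sgTrp53+MYC gave 5 genes in place of 6 (Bbc3, 0.74, edgeR adjusted p = 0.0551), the other comparisons kept their counts, and Perp in Aldafermin+MYC versus sgTrp53+MYC was 0.0088.
The direction turned only for log2 fold changes that were not called and close to 0, and the cause was not tested. In Aldafermin+MYC versus FGF19+MYC, Bax was -3.6e-05 with DESeq2, -9.7e-05 with RLE factors, -0.0035 with only the groups compared and -0.05 with the GC and length offset, while Perp was -0.0072 with DESeq2 and with RLE factors, -0.01 with only the groups compared and -0.06 with the offset. In Aldafermin+MYC versus sgTrp53+MYC, the offset gave -0.14 for Bbc3 and 0.07 for Ei24, and Perp was 0.003 without predicted genes and pseudogenes. With no filter, Ei24 was -0.001 in FGF19+MYC versus sgTrp53+MYC and Perp 0.06 in sgTrp53+MYC versus livers.
Leaving out 1 library, the ranges that crossed 0 in Aldafermin+MYC versus FGF19+MYC were -0.03 to 0.12 for Bax, -0.27 to 0.06 for Pmaip1, -0.09 to 0.41 for Fas and -0.22 to 0.22 for Perp. In Aldafermin+MYC versus sgTrp53+MYC they were -0.1 to 0.23 for Bbc3 and -0.29 to 0.21 for Perp, and in FGF19+MYC versus sgTrp53+MYC -0.23 to 0.18 for Perp and -0.05 to 0.19 for Ei24. CPM on library totals, without TMM, moved 12 of the 40 group means by more than their SD, 7 of them in livers, where Ei24 was 222 and Bax 16.4 CPM. At 3 to 37 reads per library, Eda2r, Tnfrsf10b and Pmaip1 are limited by depth in livers.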
